A study of Drosophila melanogaster with 12 samples.

Results

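The genes described here encode subunits of the mitochondrial oxidative phosphorylation system. They were taken from the deposited gene tables by symbol: names starting with ND- or ND and a digit, SdhA to SdhD, UQCR-, COX and a digit, ATPsyn or Cyt-c, and the mitochondrial names mt:Co, mt:Cyt-b, mt:ATPase and mt:ND. The rule found 84 nuclear genes among 16995 listed genes. It found 0 mitochondrial genes, and 0 of the 13 mitochondrial protein-coding symbols looked for were listed, so the nuclear genes alone are described. All 84 symbols matched a RefSeq gene of Drosophila melanogaster.

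RNA was taken from 1-day-old whole flies, 10 flies per sample, in 4 Ub6-GG, 4 Ub6-Stop and 4 Control samples. Ub6 is a linear chain of ubiquitin repeats without internal di-glycine motifs. Ub6-GG ends in di-glycine and can be conjugated to other proteins, and Ub6-Stop lacks that end. Ub6-GG and Ub6-Stop flies were heterozygous for the transgene at the Attp40 insertion site and for the sqh-Gal4 driver, which is active in all tissues and stages, and Control flies had 1 copy of that driver on the same background and no Ub6 transgene. The tables give 1 level per gene, the authors' mean log2 counts per 1000000 reads (CPM) over all 12 libraries, and no value for a single library. The authors' own comparisons of Ub6-GG and Ub6-Stop with Control are also listed for each gene, and they were not used here. Without values for single libraries, no new comparison was made. Every value below describes the 3 groups together, with no standard deviation between samples.

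Oxidative phosphorylation couples the transfer of electrons from NADH and succinate to oxygen with the synthesis of ATP. Complexes I and II pass electrons to ubiquinone, complex III passes them to cytochrome c, and complex IV reduces oxygen. Complexes I, III and IV move protons across the inner mitochondrial membrane, and complex V, the ATP synthase, uses the gradient to make ATP. Most subunits are encoded in the nucleus and a small set in mitochondrial DNA, and insect flight muscle is known for its dense mitochondria. In Drosophila several subunits have a second gene copy, usually named after the first with an added L for "like". Here 20 of the 84 genes are such copies, with Cyt-c-d counted beside Cyt-c-p, and they are referred to as like-genes.

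The libraries were of the 3′ mRNA type, in which reads lie near the end of the transcript, so levels were compared between genes without division by length. The spacing of the lowest levels gave effective library sizes of 1055199 to 2366737 reads (median 1680810), which could not be tied to single samples. It also gave a common dispersion of 0.146, a coefficient of variation of 38.2% between libraries. For a well-counted gene this corresponds to a standard error of 0.16 on the log2 scale for its mean level. The 95% span of a difference between 2 such levels is then ±0.44, and smaller differences are not read as an order below. This span takes the 2 genes as independent, although both come from the same 12 libraries. It holds only the spread between libraries, and no difference between genes in how their reads were captured or counted. A gene without a read is listed at 0.25 log2 CPM because of the prior count in the authors' scale. A floor of 3 reads over all 12 libraries, used as the bound for a gene with 0 reads, is 0.148 CPM. The upper end of the 95% Poisson interval for such a gene is 0.182 CPM. Read totals and shares of gene reads below were calculated back from the mean level and the average effective library size. They are estimates, as no counts were given. Intervals on reads cover counting error only.

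As a check of the tissue label, markers of several organs of a whole fly were present, at differing levels. Flight muscle actin Act88F was at 10.60 log2 CPM, the photoreceptor rhodopsin gene ninaE at 7.90, and the midgut protease gene Jon65Aiii at 11.11. The other flight muscle marker, fln, was lower, at 6.10. The neuron markers elav and nSyb were at 5.66 and 6.68, and the fat body markers Fbp1 and Lsp2 at 6.98 and 9.58. Both the yolk protein gene Yp1 (10.87) and the male germ line gene Mst87F (8.07) were present, and the labels do not give the sex of the flies. In whole-fly RNA, a lower level can mean fewer cells of a type or less RNA per cell, and these cannot be told apart.

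The oxidative phosphorylation genes were among the genes of highest level. Their median was 8.24 log2 CPM (lowest 0.25, highest 12.37), against 2.62 for the other 16911 listed genes. The median member stood at percentile 97.3 of all listed genes, and 62 of 84 members (73.8%) were above 5 log2 CPM, against 3377 of the 16911 other genes. The members fell into separate ranges. Of the 64 members that are not like-genes, 58 were above 7 log2 CPM and 6 were below it. None of the 20 like-genes was above 7, and no member of either kind lay between 5.88 and 7.17 log2 CPM. The median was 8.84 log2 CPM without the like-genes and 3.29 for the like-genes alone. Together the 84 genes took 5.66% of all reads assigned to genes, of which the like-genes took 0.03%. Among the 100 genes of highest level in the tables, 6 were members, and among the highest 1000 genes, 58 were.

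**Figure D1:**
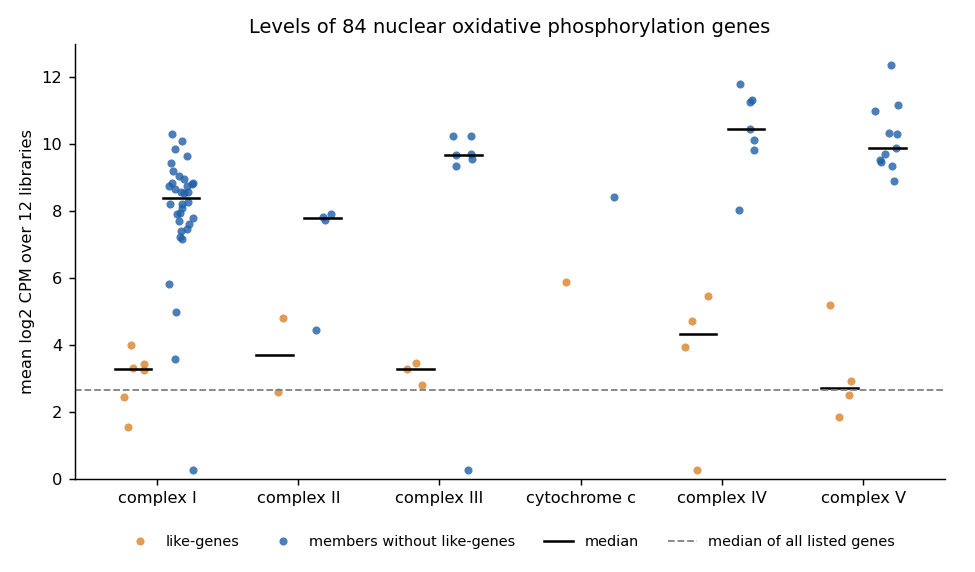
Mean log2 CPM over the 12 libraries of each of the 84 nuclear oxidative phosphorylation genes, by respiratory complex. Orange points are like-genes, blue points the other members, black bars the medians and the dashed line the median of all listed genes (2.64). Apart from 6 low blue points in complexes I, II and III, the blue points lie above 7 log2 CPM and all orange points below it.

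Complex I, the NADH dehydrogenase, had 40 members, of which 34 are not like-genes. Those 34 had a median of 8.41 log2 CPM and took 1.52% of gene reads. The 7 nuclear core subunits, most of which carry the flavin or iron-sulfur clusters or form the path of electrons to ubiquinone, lay between 7.17 and 8.82 log2 CPM. ND-24 was at 8.82 log2 CPM, ND-30 at 8.74, ND-23 at 8.55, ND-20 at 8.26 and ND-75, a large iron-sulfur subunit, at 8.21. ND-51, which binds NADH and the flavin, was at 7.22 and ND-49 at 7.17. ND-51 and ND-49 did not differ from each other by more than the span of 0.44, and both were below the other 5 core subunits by more than that.

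The 27 accessory subunits of complex I, which surround the core and are needed for its assembly and stability, varied far more. ND-B12 was highest at 10.32 log2 CPM, followed by ND-39 at 10.09 and ND-B14.5B at 9.87, and neighbours in this order differed by less than the span. ND-B14.7 was at 9.66, ND-PDSW at 9.43 and ND-B14.5A at 9.21. The mitochondrial acyl carrier protein gene ND-ACP was at 8.57, at the median of the accessory subunits. The lower end held 4 genes that stood apart from the rest. ND-18, the ortholog of human NDUFS4, was at 5.82 log2 CPM with 1116 reads over all 12 libraries, and ND-AGGG was at 4.98 with 612 reads. ND-B8 was at 3.59 with 219 reads, or 10.9 CPM (95% Poisson interval 9.45 to 12.4). ND-MNLL, a small membrane subunit, was listed with no read.

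Complex II, succinate dehydrogenase, is also an enzyme of the citric acid cycle and has no subunit encoded in mitochondrial DNA. It was the complex of lowest level, with 0.08% of gene reads. Of its subunits, 3 were at nearly the same level: the membrane anchors SdhC at 7.91 log2 CPM and SdhD at 7.84, and the flavoprotein SdhA, which oxidises succinate, at 7.74. The iron-sulfur subunit SdhB was at 4.44, with 414 reads over the 12 libraries against 4299 for SdhA. In CPM with the prior count removed, SdhB was at 20.5 (95% Poisson interval 18.6 to 22.6) and SdhA at 213 (206 to 219).

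Complex III, the cytochrome bc1 complex, had 7 members that are not like-genes, and 6 of them lay within a narrow range. The small subunit gene UQCR-6.4 was at 10.26 log2 CPM and Cyt-c1, which carries the heme that hands electrons to cytochrome c, at 10.24. UQCR-C2 and UQCR-C1, the core proteins on the matrix side, were at 9.71 and 9.35, UQCR-Q at 9.68 and UQCR-11 at 9.57. UQCR-14, the ortholog of human UQCRB, was listed at 0.25 with no read. Cytochrome c itself, the soluble carrier between complexes III and IV, is encoded by Cyt-c-p, at 8.41 log2 CPM, and by Cyt-c-d, known for its role in the male germ line, at 5.88.

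Complex IV, cytochrome c oxidase, had the highest median of the complexes, 10.46 log2 CPM over its 7 members that are not like-genes. COX6B was at 11.80 with 71972 reads, COX5A at 11.33 and COX4 at 11.26, all structural subunits around the catalytic core, which is encoded in mitochondrial DNA. COX7C was at 10.46, COX8 at 10.13 and COX5B at 9.83. COX7A was lowest at 8.03 log2 CPM and stood below the other members of the complex by more than the span.

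Complex V, the ATP synthase, took the largest share of gene reads of the 5 complexes among the members, 1.93%. ATPsynC, which encodes subunit c of the rotor ring in the membrane, was the highest of all 84 members at 12.37 log2 CPM. ATPsynF, a membrane subunit, was at 11.18. ATPsynD, ATPsynCF6, ATPsynO and ATPsynB form the peripheral stalk, and their levels were 11.00, 10.33, 10.30 and 9.72. The membrane subunits ATPsynG and ATPsynE were at 9.88 and 9.34. The catalytic subunit ATPsynbeta was at 9.47, and ATPsyngamma and ATPsyndelta of the central stalk were at 9.54 and 8.90. ATPsynC thus had 107022 reads against 14313 for ATPsynbeta, a difference beyond the span between levels. None of the 11 complex V members that are not like-genes was below 8.90 log2 CPM.

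Some subunits have names that the rule does not take. The 7 of these listed under their own symbol all lay in the high range, with a median of 9.95 log2 CPM. In complex V, blw, the alpha subunit that pairs with ATPsynbeta, was at 11.37 and sun, the epsilon subunit, at 8.42. In complex IV, cype was at 11.22 and levy at 10.26. In complex III, the Rieske iron-sulfur protein gene RFeSP was at 9.64 and ox at 9.84, and in complex I, NP15.6 was at 9.95. The tables list 7 further subunit genes under older CG numbers. COX7B (CG7630) was at 9.89 log2 CPM and COX7AL2 (CG34172) at 9.74, and the other 5, all like-genes, lay between 2.48 and 4.98.

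Each of the 20 like-genes was set beside its parent gene. The like-gene was listed lower in 18 pairs and higher in 2 pairs. With COX5BL left aside, each of the lower like-genes was so by more than 2 standard errors of the difference. COX5BL in the first set and UQCR-14 in the second had no read and a 3′ end wholly shared with another gene, so the order of their pairs is not read. The median difference over the 20 pairs was -5.38 on the log2 scale, with a range of -9.58 to 3.04. Both ends of the range belong to pairs with a gene without reads (again COX5BL and UQCR-14), whose listed level is set by the prior count, and the other 18 pairs lay between -7.63 and 0.37. Several like-genes of this family are known for expression in the testis, and with pooled whole-fly levels their tissue was not tested here.

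**Figure D2:**
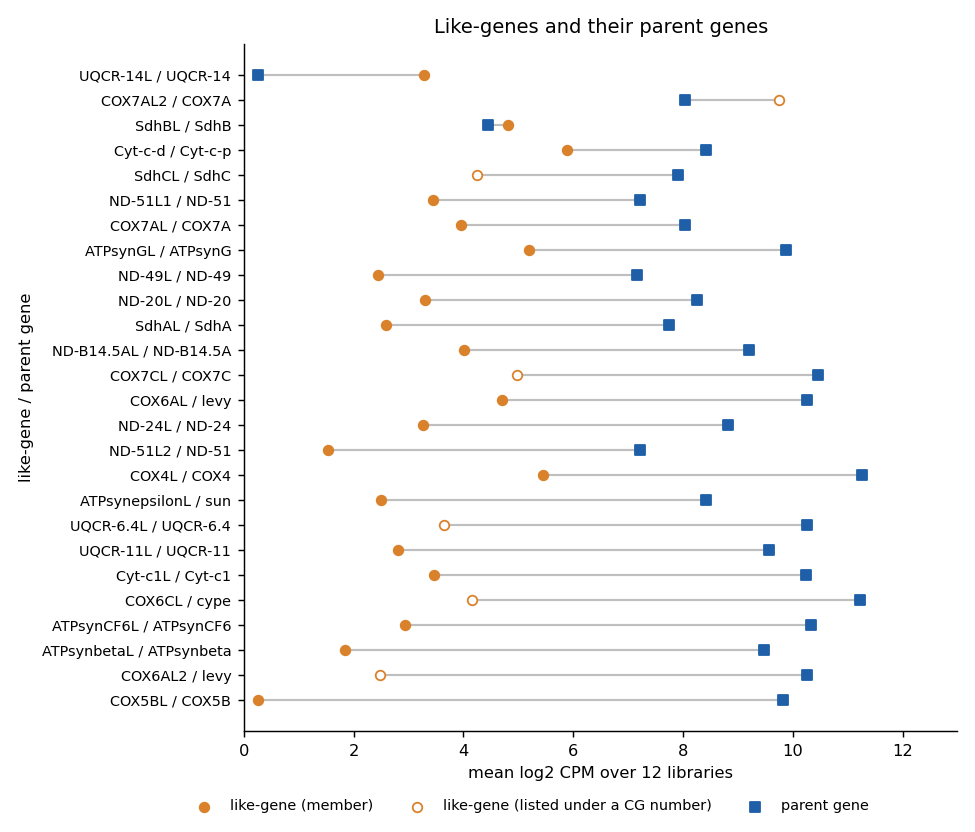
Mean log2 CPM over the 12 libraries of each of 26 like-genes (orange circles, filled for the 20 members and open for those listed under CG numbers) and its parent gene (blue squares), 1 pair per line. Among the member pairs 18 have the like-gene lower, of which Cyt-c-d against Cyt-c-p is the narrowest at -2.52, and UQCR-14L, COX7AL2 and SdhBL are the 3 like-genes drawn above their parents.

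Among the like-genes of complex I, the 6 pairs were separated by -3.78 to -5.69 on the log2 scale. ND-51L1 was at 3.44 and ND-51L2 at 1.53 log2 CPM, against 7.22 for ND-51, their common parent. ND-51L2 had 34 reads in all. ND-B14.5AL was at 4.01, against 9.21 for ND-B14.5A, a difference of -5.21. ND-20L was at 3.30 against 8.26 for ND-20, ND-24L at 3.26 against 8.82 for ND-24, and ND-49L at 2.45 against 7.17 for ND-49.

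In complex V the 4 pairs were separated by -4.68 to -7.63 on the log2 scale. ATPsynbetaL was at 1.84 log2 CPM and ATPsynbeta at 9.47, and the parent was 295-fold higher once the prior count was removed. The coding sequence of ATPsynbetaL spans 622 residues and that of ATPsynbeta 511. ATPsynCF6L was at 2.93 and ATPsynCF6 at 10.33, a 200-fold difference, and ATPsynepsilonL at 2.49 and sun at 8.42, a 76.9-fold difference. ATPsynGL, at 5.20 against 9.88 for ATPsynG, was the nearest to its parent, which was 26.5-fold higher.

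In complexes III and IV the like-gene was listed lower in 6 of 7 pairs. Cyt-c1L was at 3.46 log2 CPM against 10.24 for Cyt-c1, and UQCR-11L at 2.80 against 9.57 for UQCR-11. COX4L was at 5.45 against 11.26 for COX4, COX6AL at 4.70 against 10.26 for levy, and COX7AL at 3.95 against 8.03 for COX7A. COX5BL was listed with no read, against 18360 reads for COX5B. Cyt-c-d was at 5.88 against 8.41 for Cyt-c-p, with Cyt-c-p 5.84-fold higher. Among the 20 like-genes that are members, Cyt-c-d, COX5BL and COX7AL are the 3 that lie within 3 genes of their parent in the annotation.

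The pairs with the like-gene listed higher were of complexes II and III. SdhBL was at 4.81 log2 CPM (542 reads) and SdhB at 4.44 (414 reads). The difference of 0.37 has a standard error of 0.24 and lies within the span between 2 levels, so the order of these genes is not resolved. The other pair of complex II, SdhAL at 2.58 against SdhA at 7.74, showed the parent 44.4-fold higher. UQCR-14L was at 3.28 with 173 reads, among the other like-genes, and UQCR-14 was listed with no read. The whole 3′ end of UQCR-14 lies in an exon of another gene, as described with the gene models, so its listed level is not read as lying below that of UQCR-14L. Of the like-genes listed under CG numbers, COX7AL2 was above its parent COX7A by 1.71 on the log2 scale, and the other 5 were below theirs by -3.67 to -7.78. COX7AL2 thus lay in the range of the main subunits of complex IV, above COX7A.

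The low members that are not like-genes were then set beside the gene models around them. For each gene, the share of bases in the last 400 of its transcripts that also lie in an exon of another gene was taken from the Ensembl annotation, a measure chosen after the members without reads had been seen. In 3 members the whole 3′ end was shared, and these were the 3 members with no read: ND-MNLL, UQCR-14 and COX5BL. ND-MNLL shares its end with CG45089 on the same strand, UQCR-14 with CG32576 on the opposite strand and COX5BL with Trmt6 on the opposite strand. CG45089 also had no read (0.25 log2 CPM), CG32576 was at 4.39 and Trmt6 was not listed under that symbol. Whether the dm3 gene models used for counting hold the same overlaps was not tested. Among members with reads the highest share was 40.5%, in UQCR-6.4, which at 10.26 log2 CPM lay beside Cyt-c1 at the top of complex III. Some part of the end was shared in 27 members and none in 57.

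**Figure D3:**
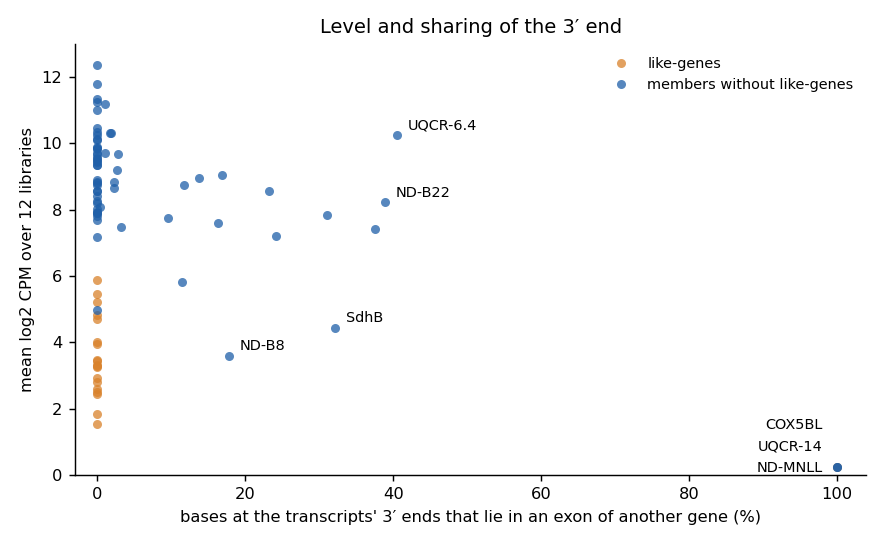
Mean log2 CPM of each of the 84 members against the share of its 3′ end (last 400 bases of its transcripts) that lies in an exon of another gene, in percent. The 3 members at 100%, drawn on top of each other, are the 3 without a read, and the other members, at 40.5% or less, lie between 1.53 and 12.37 log2 CPM.

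The same measure over all 12565 matched protein-coding genes gives the setting for these 3 members. Of 584 genes whose whole 3′ end was shared, 411 had no read (70.4%), against 6.14% of the 9079 genes with no base shared and 8.49% of all matched genes. With the whole end shared on the same strand only, 84.5% had no read, and on the opposite strand only, 44.2%. The counting in these tables set aside reads as ambiguous between features, equal to 8.94% of the effective library sizes. The part of such reads in the levels of ND-MNLL, UQCR-14 and COX5BL was not tested. The measure was smaller for the other low members. SdhB shared 32.2% of its end, with CG15237 on the opposite strand, and SdhD, with 31.0% shared, was at 7.84 log2 CPM. ND-B8 shared 17.8%, ND-18 shared 11.5% and ND-AGGG shared no base. ND-B22 and ND-MWFE, with 38.9% and 37.6% shared, were at 8.22 and 7.41, above SdhB, ND-B8, ND-18 and ND-AGGG.

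The members were set beside the genes of the mitochondrial and the cytosolic ribosome, other large complexes whose subunits are encoded in the nucleus. The 64 members that are not like-genes had a median of 8.84 log2 CPM, the 73 mitochondrial ribosomal protein genes 4.89 and the 92 cytosolic ribosomal protein genes 10.44. The ribosomal sets were taken whole by symbol, with no low gene copies set apart. All 84 members, taken whole in the same way, had a median of 8.24. The highest mitochondrial ribosomal protein gene was at 7.01, within the span of 0.44 from ND-49 (7.17), ND-51 (7.22) and ND-MWFE (7.41) and below the rest of the 58 members above 7 log2 CPM by more than that. All 84 members took 5.66% of gene reads, against 0.28% for the mitochondrial and 18.25% for the cytosolic ribosomal protein genes. The highest member, ATPsynC at 12.37, was near the highest cytosolic ribosomal protein gene at 12.55. These are descriptions over genes of the same 12 pooled libraries, and no test was made between the sets.

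**Figure D4:**
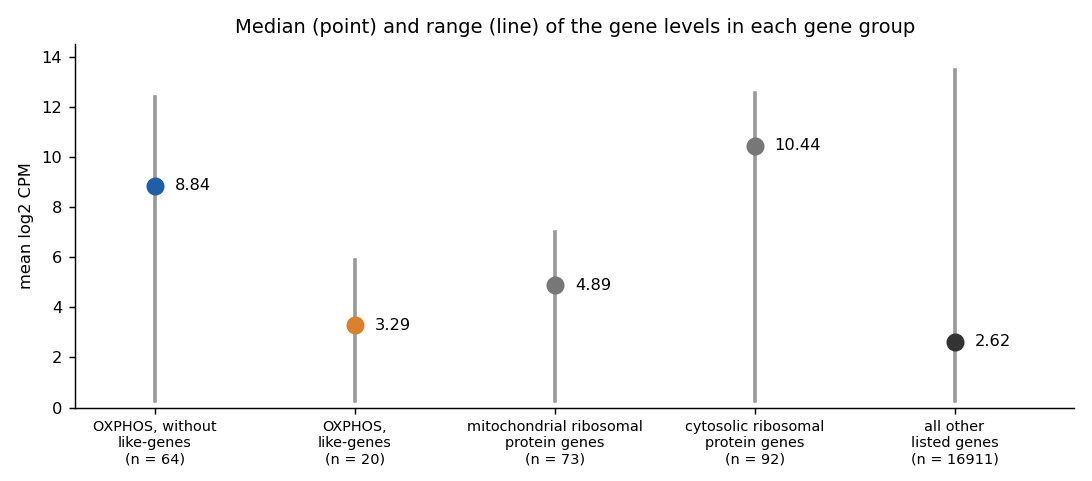
Median (point, value beside it) and range (line) of mean log2 CPM over the 12 libraries in 5 groups of genes, with the number of genes under each. The medians are 8.84 for oxidative phosphorylation members without like-genes, 3.29 for like-genes, 4.89 for mitochondrial and 10.44 for cytosolic ribosomal protein genes and 2.62 for all other listed genes. Only the oxidative phosphorylation genes were split in this way, and the ribosomal sets are whole.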

How the data were processed

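Poly(A)-primed QuantSeq 3′ libraries were made from 250 ng of total RNA of each of the 12 samples. Reads were demultiplexed with CASAVA 1.8.2 and aligned to the dm3 genome with STAR, reads were counted per gene, and the authors compared the groups with edgeR. Each of the 2 deposited tables holds, for 16995 genes, the authors' mean log2 CPM over all 12 libraries, the same in both tables (largest difference 0.0). The other columns hold the authors' own log2 fold changes, likelihood ratios, p-values and false discovery rates between groups, which were not used here. There are no columns of single samples, so no new comparison of groups was made and no test was run. A further 2 rows name no gene and were left out. They hold reads outside features (5.34%) and ambiguous reads (8.94%), as shares of the effective library sizes.

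Library sizes and the dispersion were solved from the levels of genes with 0 and 1 read, with a prior count of 2, and then predicted 78 of 78 distinct levels of genes with 2 reads within 2e-05. In the formula used, a level is the log2 of 1 mean abundance fitted over the libraries, not a mean of log2 values per library. The total recovered for a gene with 1 read was 0.92 to 1.11. The solution was also run on simulated data made with the same formula. Such a run checks the calculation and cannot show whether the formula holds for the deposited levels. How the authors grouped the libraries for the dispersion, and the strand setting of the counting, are not given in the sources used here. "Prior removed" means that the level of a gene without reads was subtracted on the linear scale.

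Members were matched to symbols, synonyms and coding lengths of RefSeq, and 3′ ends (400 bases) came from Ensembl release 115 (BDGP6.54). Since this build differs from dm3, no coordinates are given. Genes were named by rule: the 3 highest and 3 lowest of each complex, core subunits, like-genes with parents, and pathway genes outside the naming rule; other named genes were chosen after their values were seen. Members, lists and rules were chosen with earlier results of these data known. Alternatives concerned the filter on low values, the averaging scale, matching, like-genes, the prior count and thresholds. Python 3.11.15, numpy 2.4.6, scipy 1.17.1, pandas 2.3.3 and matplotlib 3.10.9 were used.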

Additional observations from a re-analysis of the deposited data

Results flagged for a closer look

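Reads that the counting set aside as ambiguous between features corresponded to 8.94% of the effective library sizes (16.45 log2 CPM, mean over the 12 libraries). They are a signal outside the gene rows used above. Reads outside any feature corresponded to 5.34% (15.71 log2 CPM). No other row holds reads outside the genes, so these are not shares of all sequenced reads. The levels are pooled over all libraries, so no group was searched for a sample far from the others.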

How the results depend on the processing

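The median level of the 84 nuclear members, 8.24 log2 CPM, was 8.22 with names matched without regard to case. It was 8.24 from the other table, which holds the same levels and so is no separate check. It was 8.41 with only members above 1 log2 CPM, 8.41 with the pathway genes matched by symbol or synonym added, and 8.84 without like-genes. It was 8.41 without the 3 members whose 3′ end is wholly shared, an alternative chosen after seeing the data. The log2 of the mean linear CPM over the 84 members, which is a mean over genes and not a median, was 9.19. The median percentile, 97.3 among all genes, was 97.2 among genes with at least 1 read and 96.5 among genes above 1 log2 CPM. The share of members above the threshold was 96.4% at 1 log2 CPM and 73.8% at 5. The median difference between like-genes and parents, -5.38, was -5.55 with the prior count removed over the 18 pairs with reads in both genes. The direction of these pairs could not change, as the same prior count is removed from both genes. Of the 18 pairs, 11 moved by more than 0.16. COX5BL and UQCR-14L, paired with or against a gene without reads, gave no value there. The median of mitochondrial members had no value under any alternative, as no member was listed. The promoter motif alternatives and the protein identities were not run, as no sequence table was used here. No paired analysis was possible because the level column is pooled over all libraries and carries no replicate numbers.

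At these library sizes, 1 read in the average library is 0.594 CPM and the floor of 3 reads over all libraries is 0.148 CPM. The 3 members without a read have wholly shared 3′ ends, and whether depth or the counting sets their level was not tested. The dispersion is common to all genes and gives no spread for a single gene.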
